A study of Homo sapiens with 66 samples.

Results

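VEGFA encodes vascular endothelial growth factor A, the secreted ligand that drives the growth of new blood vessels. The VEGFA locus is described here as every hypoxia-inducible factor (HIF) peak whose centre lay within 200 kb of the VEGFA transcription start in 50 ChIP-seq peak lists. The start used was position 43737948 on the plus strand of chromosome 6 in GRCh37 (hg19), the most upstream start of a coding VEGFA transcript (ENSG00000112715.26_18). Of 131425 peaks, 85 met this rule, and peaks that overlapped by at least 1 bp were merged into 14 sites. A peak in 5 or more libraries was found at 5 of these sites, which together held 72 of the 85 peaks. The 5 sites lay 102 kb upstream, 45 kb upstream, at the promoter, 29 kb downstream and 184 kb downstream of the start.

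HIF is a dimer of an oxygen-regulated subunit, HIF-1α or HIF-2α, and the constitutive subunit HIF-1β. When oxygen is plentiful, prolyl hydroxylases mark the α subunit for capture by the von Hippel-Lindau protein (VHL) and destruction, whereas in hypoxia the dimer accumulates and binds hypoxia response elements (HREs). VEGFA is among the best known HIF target genes, and its product signals through the receptors FLT1 and KDR on endothelial cells.

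The libraries formed 25 groups of 2. In a severity and duration experiment, HKC-8 (HKC8 in the labels), a human kidney proximal tubule line, was kept at 3% oxygen for 6 h or at 0.5% oxygen for 6 h, 16 h or 48 h, and chromatin from each state was precipitated with antibodies to HIF-1α, to HIF-2α and to HIF-1β. In a second HKC-8 experiment at 0.5% oxygen for 16 h, wild-type cells were examined with the same antibodies, HIF-1α knockout (KO) cells with HIF-2α and HIF-1β, and HIF-2α KO cells with HIF-1α and HIF-1β. Each KO line was a single CRISPR-Cas9 clone, so the genotype and the clone cannot be told apart. RCC4, a kidney cancer line without functional VHL, was examined in normoxia, and HepG2, a hepatocellular cancer line, at 0.5% oxygen for 16 h, each with all 3 antibodies. In comparisons with HKC-8, the cell line cannot be told apart from the experiment, nor in RCC4 from the oxygen level. The RCC4 HIF-1β libraries are numbered 2 and 3 in the labels. Input chromatin was not analysed here.

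Each list gave a score for every peak, the caller's measure of significance, and this score was used only to rank peaks within a list. Rank 1 is the highest score. The lists carry no read depth and no signal where nothing was called, so a missing peak may lie just under the caller's limit. Lists of the severity and duration experiment were the shortest, at 237 to 1793 peaks, against 915 to 8279 for wild-type and KO HKC-8 and 911 to 6851 for the other lines. Among the HepG2 libraries, HIF-1α replicate 1 and HIF-2α replicate 2 stood apart: 4.09% and 5.16% of their peaks lay within 1 kb of a coding gene's start, against 22.8% to 25.1% in the other HepG2 libraries. Deviations of same-numbered HIF-1α and HIF-2α libraries from their group means were correlated at -0.494 in HepG2 over 6992 series sites. Whether the antibody labels of the HepG2 HIF-α libraries are right is uncertain and was not tested. HepG2 ranks are given as labelled. The comparisons of HIF-1α with HIF-2α by number of sites and by best rank are also given without HepG2.

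**Figure D1:**
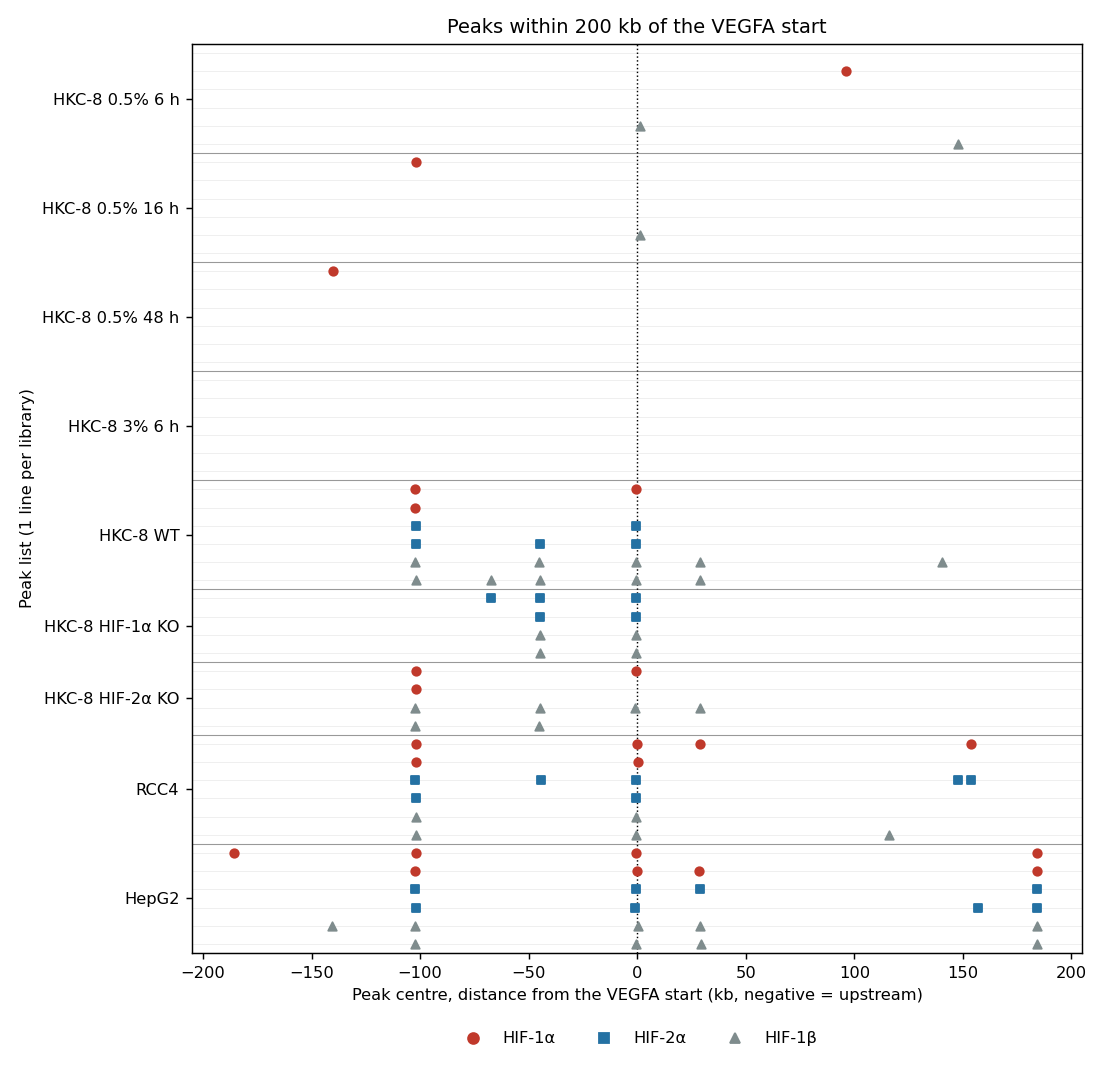
Each row is 1 of the 50 peak lists and each mark a peak, placed by the distance of its centre from the VEGFA start in kb (negative is upstream), with colour and shape giving the antibody. Columns of marks stand at 102 kb and 45 kb upstream, at the promoter, and at 29 kb and 184 kb downstream, and the 24 severity and duration libraries at the top are nearly empty.

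The sequences at the centres of 3 of these sites are shown because an HRE core, ACGTG or GCGTG on either strand, lay within 100 bp. All are from the GRCh37 plus strand, and capitals mark the cores, with those of the minus strand reading CACGT or CACGC. For the promoter, a stretch of 60 bases is shown around the core centred 974 bp before the start, the most upstream of 6 cores that 23 of the 25 peaks there spanned.
102 kb upstream, chr6:43635823-43636122: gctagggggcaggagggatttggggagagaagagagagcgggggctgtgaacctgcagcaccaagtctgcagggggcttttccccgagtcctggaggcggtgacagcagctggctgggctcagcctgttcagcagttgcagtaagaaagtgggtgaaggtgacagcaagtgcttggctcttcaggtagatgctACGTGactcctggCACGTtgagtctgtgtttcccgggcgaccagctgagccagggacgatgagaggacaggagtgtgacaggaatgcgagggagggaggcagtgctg
45 kb upstream, chr6:43692849-43693148: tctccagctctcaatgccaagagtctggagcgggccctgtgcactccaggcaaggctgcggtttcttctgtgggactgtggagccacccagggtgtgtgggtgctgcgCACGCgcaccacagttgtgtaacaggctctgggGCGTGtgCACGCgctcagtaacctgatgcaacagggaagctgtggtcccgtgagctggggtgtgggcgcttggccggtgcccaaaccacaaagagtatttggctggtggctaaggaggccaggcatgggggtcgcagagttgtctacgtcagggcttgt
Promoter, upstream core, chr6:43736944-43737003: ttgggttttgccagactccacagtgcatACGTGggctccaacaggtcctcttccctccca
29 kb downstream, chr6:43766636-43766935: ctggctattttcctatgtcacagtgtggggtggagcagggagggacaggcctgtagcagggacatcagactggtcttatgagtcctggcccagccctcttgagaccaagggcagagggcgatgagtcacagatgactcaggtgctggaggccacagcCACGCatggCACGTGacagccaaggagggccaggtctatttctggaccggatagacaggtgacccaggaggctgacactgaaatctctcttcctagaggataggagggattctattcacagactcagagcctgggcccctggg

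Within 100 bp of its centre the site 102 kb upstream held 2 cores, both ACGTG, 1 on each strand, and all 23 of its peaks spanned both. The whole merged site, 4049 bp long, held 8 cores. The promoter site held 2 cores within 100 bp of its centre, the site 45 kb upstream 3 and the site 29 kb downstream 3, of which 2 overlap as the palindrome CACGTG. The site 184 kb downstream had no core within 100 bp of its centre, and its nearest lay 141 bp away and was spanned by all 6 of its peaks. Over the series, 62.6% of the 6973 sites on chromosomes 1 to 22, X and Y with a peak in at least 5 libraries had an HRE core in the same window of 201 bp, and 10.3% had 3 or more. The site 29 kb downstream also held 2 copies of the AP-1 motif, TGAGTCA or its reverse complement TGACTCA, in lower case in its sequence, and the other 4 sites held none in that window. An AP-1 motif was present in 15.8% of the series sites. A match describes the letters and not binding.

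The window also contains the starts of 6 other coding genes, all upstream of VEGFA: XPO5, POLH, GTPBP2, MAD2L1BP, RSPH9 and MRPS18A. The site 102 kb upstream (chromosome 6, 43634073 to 43638121) lay in an intron of RSPH9, a radial spoke protein gene, and the nearest coding start was that of MRPS18A, a mitochondrial ribosomal protein gene, 19.6 kb away. The site 45 kb upstream (43691411 to 43694619) lay in an intron of the lncRNA gene ENSG00000236961, and the nearest coding start was again that of MRPS18A, 37.5 kb away. The promoter site (43735605 to 43740313) was centred in intergenic sequence 0.564 kb upstream of VEGFA. The site 29 kb downstream (43765348 to 43768071) was intergenic, and that at 184 kb downstream (43920975 to 43923296) lay in an intron of the lncRNA gene SCIRT. The coding start nearest to the latter was that of TMEM63B, 172 kb away and outside the window. Position does not say which gene a site acts on.

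Having 5 such sites placed VEGFA among a minority of genes. At least 1 site with a peak in 5 or more libraries lay within 200 kb of 67.8% of 19821 coding genes, and at least 5 such sites lay within that distance of 8.19%.

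The VEGFA promoter carried a peak in kidney and liver cells with all 3 antibodies. Of 25 libraries with a peak at the merged promoter site, 23 had it centred within 1 kb of the start, 20 of them upstream, and only 0.55% of 19821 coding genes had a promoter peak in at least 23 libraries. The other 2 peaks, both from HIF-1β replicate 1 libraries of the severity and duration experiment, were centred 1.34 kb (6 h) and 1.27 kb (16 h) inside the gene and joined the site only through wide peaks of other lists. The 23 peaks came from 6 of 6 RCC4, 6 of 6 HepG2, 5 of 6 wild-type HKC-8, 4 of 4 HIF-1α KO and 2 of 4 HIF-2α KO libraries. They came from 0 of 24 severity and duration HKC-8 libraries, of which 6 shared the oxygen level and time of the wild-type libraries.

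In RCC4, the promoter was among the strongest HIF-2α peaks of the genome. It ranked 24 of 4317 in HIF-2α replicate 1 and 39 of 2990 in replicate 2, the top 0.556% and 1.30% of those lists. With HIF-1α it ranked 202 of 5680 and 229 of 2120, the top 3.56% and 10.8%. The ranks of both HIF-2α libraries were above those of both HIF-1α libraries. With HIF-1β it ranked 89 of 911 and 108 of 1305, the top 9.77% and 8.28%.

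In wild-type HKC-8 the promoter ranked lower than in RCC4 with every antibody. HIF-1α gave a peak in replicate 1 at rank 943 of 1913, the top 49.3%, and none in replicate 2. HIF-2α gave ranks of 1491 of 4537 and 903 of 6749, the top 32.9% and 13.4%. HIF-1β gave 1092 of 6199 and 1162 of 8279, the lower of them in the top 17.6%. As a percent of lists of unequal length, both wild-type HIF-2α libraries stood above the HIF-1α library that had the peak, whereas by rank number that library fell between them.

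The promoter peak was called in every HIF-1α KO library and in a single replicate of each antibody in the HIF-2α KO. In HIF-1α KO cells, HIF-2α ranked it 547 of 5228 and 473 of 6540, the top 10.5% and 7.23%, both above the wild-type HIF-2α libraries. HIF-1β ranked it 812 of 3387 and 364 of 5786 in the same cells, the higher of them in the top 6.29%, on either side of the wild-type values. In HIF-2α KO cells, HIF-1α had it at rank 651 of 1271 and HIF-1β at rank 626 of 2550, in replicate 1 of each, and replicate 2 of each had no peak. The HIF-2α KO lists held 915 to 2550 peaks and the HIF-1α KO lists 3387 to 6540. The part of list length in this difference was not tested.

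In HepG2, all 6 libraries had the promoter peak. HIF-1α ranked it 536 of 3470 and 425 of 6851, HIF-2α 298 of 5187 and 443 of 4499, and HIF-1β 331 of 6171 and 704 of 3986. These ranks ran from the top 5.36% to the top 17.7%, and as labelled the values of the 3 antibodies overlapped. The libraries that stood apart, HIF-1α replicate 1 and HIF-2α replicate 2, were at 15.4% and 9.85%. HIF-1α replicate 2 and HIF-2α replicate 1 were at 6.20% and 5.75%.

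The site 102 kb upstream was the other recurrent site of the locus, and within the second HKC-8 experiment it was missing from the HIF-1α KO cells alone. It was called in 23 libraries: all 6 wild-type HKC-8, all 4 HIF-2α KO, all 6 RCC4 and all 6 HepG2 libraries, 1 of 24 severity and duration libraries and none of the 4 HIF-1α KO libraries. Its median rank over these libraries was the top 6.20%, against 10.8% over the 25 libraries with a promoter-site peak.

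Wild-type HKC-8 cells had this site with every antibody, strongest in rank with HIF-1β and HIF-1α. HIF-1α ranked it 107 of 1913 and 82 of 1535, the top 5.59% and 5.34%, and HIF-1β ranked it 199 of 6199 and 421 of 8279, the top 3.21% and 5.09%. HIF-2α ranked it 1551 of 4537 and 622 of 6749, the top 34.2% and 9.22%. Both HIF-1α libraries thus ranked it above both HIF-2α libraries, by rank number and by percent.

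The site was absent from every list of the HIF-1α KO clone and present in every list of the HIF-2α KO clone. In HIF-1α KO cells neither the HIF-2α lists of 5228 and 6540 peaks nor the HIF-1β lists of 3387 and 5786 peaks contained it. In HIF-2α KO cells, HIF-1α ranked it 86 of 1271 and 86 of 915, and HIF-1β ranked it 114 of 2550 and 231 of 2085, the top 4.47% to 11.1%. The part of list length in this difference was not tested, and genotype and clone cannot be told apart.

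Few HIF sites shared this pattern. Of 859 series sites called in all 6 wild-type HKC-8 libraries, 5.12% were absent from all 4 HIF-1α KO libraries, 44.4% were present in all 4 HIF-2α KO libraries and 0.931%, or 8 sites including this one, met both conditions. The comparison was chosen after these calls had been seen. The nearest coding genes of the other 7 sites were EMP1, PPM1H, MYL4, BTBD3, ADARB1, GATB and ENSG00000288614. Of the 8, the site 102 kb upstream of VEGFA was the only one called in all 6 RCC4 and all 6 HepG2 libraries. With 2 libraries a side and 2 antibodies, the exact permutation test of a KO against the wild type cannot give a p below 0.0556, so no call can pass 0.05.

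In the cancer lines the site 102 kb upstream was also strong. In RCC4, HIF-1α ranked it 57 of 5680 and 284 of 2120, HIF-2α 225 of 4317 and 352 of 2990, and HIF-1β 95 of 911 and 88 of 1305. The HIF-1α values, the top 1.00% and 13.4%, enclosed those of HIF-2α, at 5.21% and 11.8%. In HepG2 it ranked 86 of 6851 (HIF-1α replicate 2), 58 of 5187 (HIF-2α replicate 1), and 86 of 6171 and 42 of 3986 (HIF-1β), all within the top 1.39%. HIF-1α replicate 1 and HIF-2α replicate 2, the libraries that stood apart, had it at 431 of 3470 and 279 of 4499. Both this site and the promoter were called in all RCC4 and all HepG2 libraries, as were 1.47% of 6992 series sites with a peak in at least 5 libraries.

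**Figure D2:**
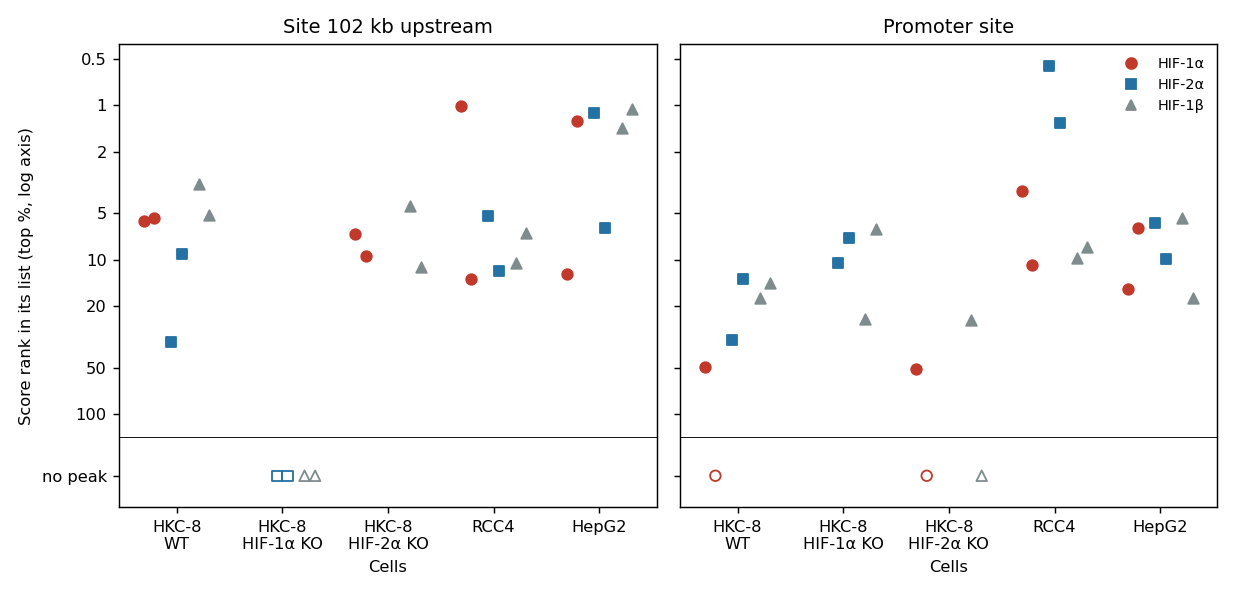
Score rank of the peak at the site 102 kb upstream (left) and at the promoter (right) in each library, as a percent of its list on a log axis with the strongest at the top, for wild-type, KO, RCC4 and HepG2 cells. Open marks at the bottom are libraries with no peak: all 4 HIF-1α KO libraries at the upstream site, and at the promoter 1 wild-type HIF-1α and 2 HIF-2α KO libraries. In RCC4 the HIF-2α squares stand highest at the promoter.

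The site 45 kb upstream was kept in the HIF-1α KO. It was called in 10 libraries: 4 of 4 HIF-1α KO, 3 of 6 wild-type HKC-8 (3 of the 4 with HIF-2α or HIF-1β, the antibodies used in the KO), 2 of 4 HIF-2α KO and 1 of 6 RCC4. In HIF-1α KO cells it ranked 2346 of 5228 and 1591 of 6540 with HIF-2α, and 2478 of 3387 and 1218 of 5786 with HIF-1β. In the wild type it was called with HIF-2α in replicate 2, at rank 3883 of 6749, and with HIF-1β in both, at 3198 of 6199 and 2359 of 8279. As a percent of the list, wild-type and KO ranks overlapped with HIF-1β. With HIF-2α both KO libraries, at the top 24.3% and 44.9%, stood above the single wild-type library that had the peak, at 57.5%.

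No HIF-1α library, of 16, had the site 45 kb upstream. In HIF-2α KO cells it was nevertheless listed by HIF-1β, at ranks 2330 of 2550 and 1598 of 2085, and in RCC4 by HIF-2α replicate 1 at 1334 of 4317. Its ranks were low throughout, with a median at the top 48.2%. Of 2682 series sites called in all 4 HIF-1α KO libraries, 43.9% were likewise in none of the 16 HIF-1α libraries, so this combination was common.

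The site 29 kb downstream was called in 8 libraries, 5 of them with HIF-1β. HepG2 had it with HIF-1β at 2126 of 6171 and 577 of 3986, with HIF-1α at 1486 of 6851 and with HIF-2α at 1746 of 5187. Wild-type HKC-8 cells had it with HIF-1β at 2981 of 6199 and 4629 of 8279, HIF-2α KO cells with HIF-1β at 1574 of 2550, and RCC4 with HIF-1α at 4230 of 5680. In HepG2 the libraries without it were the 2 that stood apart. No HIF-1α KO library and no severity and duration library had it, and its median rank was the top 41.3%.

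The site 184 kb downstream was called in all 6 HepG2 libraries and in none of the other 44. HIF-1α ranked it 609 of 3470 and 190 of 6851, HIF-2α 276 of 5187 and 234 of 4499, and HIF-1β 456 of 6171 and 234 of 3986. These were the top 2.77% to 17.6% of the lists, and as labelled the HIF-1α values enclosed those of HIF-2α and of HIF-1β. Of 660 series sites called in all HepG2 libraries, 43.5% were in no other library, so sites of this kind made up a large share of the sites common to the HepG2 lists.

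**Figure D3:**
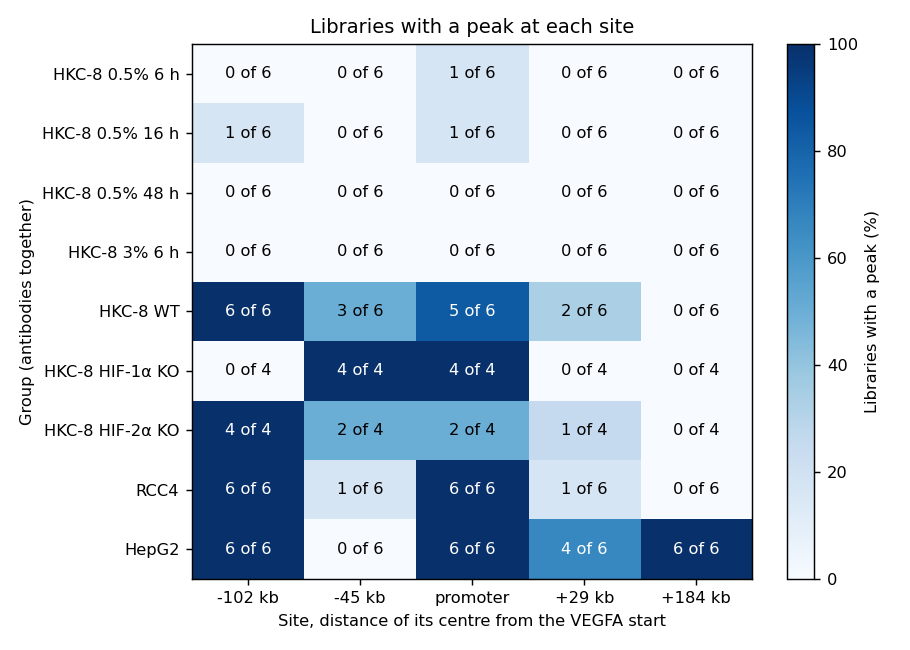
Number of libraries with a peak at each of the 5 sites (columns, by distance from the VEGFA start) in each group with the antibodies pooled (rows), with darker blue for a larger percent of libraries. The HIF-1α KO row reads 0 of 4 at 102 kb upstream and 4 of 4 at 45 kb upstream and the promoter, and only HepG2 fills the column 184 kb downstream.

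The other 9 sites were called in 1 or 2 libraries each, 5 of them in a single library. In 8 of them the ranks ran from the top 17.3% to the top 92.7%. The other, the site 154 kb downstream, in an intron of the lncRNA gene LINC01512, was at rank 311 of 5680 in RCC4 HIF-1α replicate 1 and at 1277 of 4317 in RCC4 HIF-2α replicate 1. It was absent from replicate 2 of both. It was singled out after its values had been seen.

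The severity and duration libraries gave little at this locus. Of the 24, 18 had no peak in the window and 6 had 1 each: at 6 h, HIF-1α replicate 2 and both HIF-1β replicates, at 16 h, HIF-1α replicate 1 and HIF-1β replicate 1, and at 48 h, HIF-1α replicate 1. None of the 3% oxygen libraries and none of the HIF-2α libraries had any. The single call at the site 102 kb upstream ranked 861 of 1313, the top 65.6%. The promoter within 1 kb was called in none.

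Calls were also fewer per peak of the list. The severity and duration lists had 0.223 window sites per 1000 peaks, the knockout experiment lists 0.632 and the RCC4 and HepG2 lists 0.906. In RCC4, another cell line and in normoxia, the HIF-1β lists of 911 and 1305 peaks held both the promoter and the site 102 kb upstream. Over the series, 198 sites were called in at least 22 of the 26 libraries of the other experiments, as both of these were, and their median was 11 of the 24 severity and duration libraries. Only 16.7% of them were called in 3 or fewer, as both of these were. The experiments differ in list length and peak width, and the part of either was not tested.

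Severity and duration of hypoxia made no detectable difference to the number of window sites. The mean was 0.5 ± 0.548 (SD, n = 6) at 0.5% oxygen for 6 h, 0 at 3% for 6 h, 0.333 ± 0.516 at 16 h and 0.167 ± 0.408 at 48 h. Against 6 h at 0.5% oxygen, a two-sided exact permutation test within antibody gave p = 0.167 for 3% oxygen, p = 1 for 16 h and p = 0.5 for 48 h (adjusted p = 0.5, 1 and 0.75 over the 9 comparisons of single values). With so few calls a difference was not detectable.

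Genotype and cell line were compared in the same way. HIF-1α KO libraries had 2.25 ± 0.5 sites (SD, n = 4) and the matching wild-type libraries 3.75 ± 1.5 (exact permutation p = 0.278, adjusted p = 0.625). The difference of -1.5 was -0.5 with lists of equal length and -0.25 with a window of 100 kb. It lay in the HIF-1β libraries, with 5 sites in each wild-type and 2 in each KO library, whereas with HIF-2α both genotypes averaged 2.5 ± 0.707 (SD, n = 2). HIF-2α KO libraries had 2.25 ± 1.26 sites and their wild-type counterparts 3.25 ± 2.06 (exact permutation p = 0.389, adjusted p = 0.7), a difference of -1. Per 1000 peaks the HIF-2α KO lists exceeded the wild type by 0.522 sites (exact permutation p = 0.0556, the smallest this design allows). No KO comparison could have reached 0.05.

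RCC4 and wild-type HKC-8 had the same mean number of sites, 3 each, with SDs of 1.26 and 1.67 (n = 6; exact permutation p = 1). HepG2 had 4.17 ± 0.408 (exact permutation p = 0.111, adjusted p = 0.5). When lists were shortened to their strongest peaks, to the length of the shortest list compared, RCC4 exceeded HKC-8 by 1.33 sites (exact permutation p = 0.0278) and HepG2 by 1.83 sites (exact permutation p = 0.00926, the smallest this design allows), both unadjusted. With a window of 100 kb the HepG2 difference was -0.167. None of these differences can be assigned to the cell line, since the experiment differed too, and for RCC4 also the oxygen level.

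**Figure D4:**
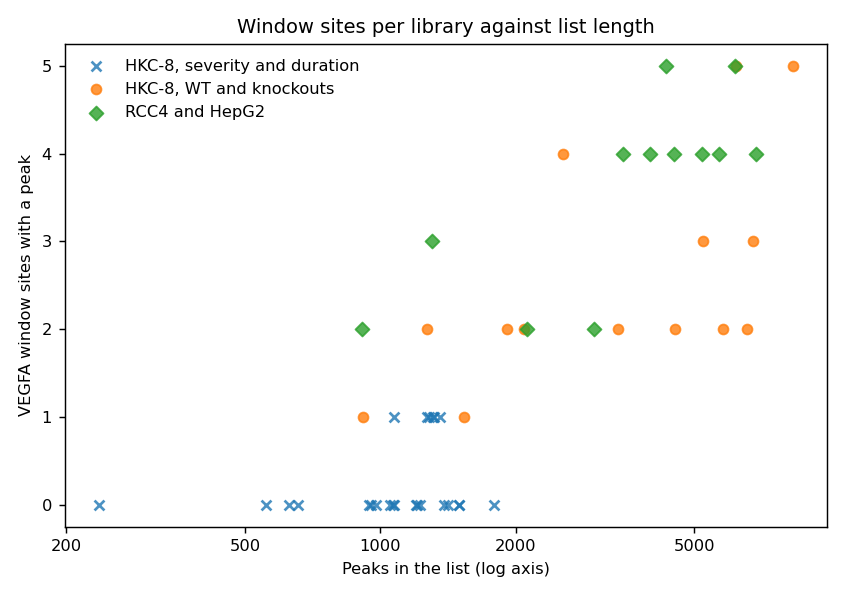
Number of VEGFA window sites with a peak (vertical axis) against the number of peaks in the list (log axis) for the 50 libraries, with the marker giving the experiment. Severity and duration lists have 0 or 1 site, while RCC4 and HepG2 lists have 2 to 5, and longer lists have more.

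HIF-1α and HIF-2α did not differ detectably at the locus over the 7 states that had both antibodies. The severity and duration states held few calls, so the comparison of counts rests mostly on the other states. It does not show that the isoforms bind alike. The mean number of sites was 1.43 ± 1.55 (SD, n = 14) for HIF-1α and 1.43 ± 1.87 for HIF-2α, a difference of 0 (exact permutation test within state, p = 1), also without HepG2. Per 1000 peaks the difference was 0.226 (exact permutation p = 0.0544), and with a score of at least 100 it was -0.286 sites (exact permutation p = 0.315). The best-ranked window peak, with lists that had none set to 100%, averaged 49.6% ± 43.4 for HIF-1α and 60.7% ± 47.7 for HIF-2α, a difference of -11.1 points (exact permutation p = 0.0984, adjusted p = 0.5), and -13.6 points without HepG2 (exact permutation p = 0.0764). By state, this rank difference was below 0 in 4, 0 in 1 and above 0 in 2, RCC4 and HepG2, with a range from -28.0 to 4.97 points. At 6 h, 16 h and 48 h, 1 HIF-1α call each (top 48.8%, 65.6% and 44.1%) stood against HIF-2α lists set to 100%. With lists that had no window peak left out, the rank difference was -2.31 points over 12 libraries (exact permutation p = 0.787). When HIF-1α replicate 1 of 6 h, replicate 2 of 16 h or replicate 2 of 48 h, which had no window peak, was left out, the unadjusted exact permutation p was 0.0328, 0.0405 and 0.0328. With a window of 100 kb, which leaves out the site 102 kb upstream, the difference was 5.03 points in the opposite direction.

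Site by site, the numbers of libraries with a peak were close. Of 14 libraries each, HIF-1α and HIF-2α had the site 102 kb upstream in 7 and 6, that 45 kb upstream in 0 and 2, the promoter in 5 and 6, that 29 kb downstream in 2 and 1, and that 184 kb downstream in 2 and 2. The adjusted p of the exact permutation test, over 6992 series sites, was 1 for each of the 5. In the series as a whole 0% of sites passed an adjusted p of 0.05 and 365 had an unadjusted p under 0.05, with a smallest adjusted p of 0.145. Since no series site passed, the test cannot decide whether HIF-1α and HIF-2α differ at these sites.

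Among the other genes of the pathway, 2 had a promoter peak in any library. The list comprised the ligands VEGFB, VEGFC, VEGFD and PGF, the receptor genes FLT1, KDR and FLT4 and the coreceptor genes NRP1 and NRP2. Of these 9, NRP1 had a peak centred within 1 kb of its start in 12 libraries and VEGFB in 5, and the other 7 in none, against 23 for VEGFA. Over all 19821 coding genes, 21.2% had a promoter peak in at least 1 library and 6.06% in at least 5. The NRP1 promoter peak was called in 4 of 6 wild-type HKC-8, 4 of 4 HIF-1α KO, 0 of 4 HIF-2α KO, 4 of 6 RCC4 and 0 of 6 HepG2 libraries. The VEGFB promoter peak was called in 4 HepG2 libraries and 1 RCC4 library.

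A peak anywhere within 200 kb was found for VEGFB in 34 libraries, for VEGFA in 32, for PGF in 30, for VEGFD and NRP1 in 21 each, for NRP2 in 14, for VEGFC in 13 and for FLT4 in 10. FLT1 and KDR, the VEGFA receptor genes of endothelial cells, had such a peak in 1 library each. Over all coding genes the median was 14 libraries, with quartiles of 8 and 23, and 10.8% of genes had such a peak in at least 32 libraries.

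The number of window peaks per library was most like that of VEGFA for RIOK3 (Spearman's rho 0.892 over 50 libraries), NAP1L5 (0.879), DEFB129 (0.878), CUL4A (0.876) and STOM (0.868), among 13479 genes compared. All libraries share their list length across genes, and rho between the VEGFA count and list length was itself 0.784. These values are a description of the lists.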

How the data were processed

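ChIP-seq peak lists of 50 libraries were used. Per the labels and the study's methods, the authors trimmed reads with Trim Galore 0.3.3, aligned them to GRCh37 (hg19) with BWA 0.7.5a-r405, filtered them with SAMtools 0.1.19 and bedtools 2.17.0, treated duplicates with Picard 1.106 and called peaks with MACS in control mode, library by library. They also used a second caller, T-PIC, and kept peaks found by both above a background limit. Peak numbers in all 50 lists run from 1 without a gap. Lists may be renumbered after filtering, so whether the lists used here had passed that filter is not known. The MACS version is not given in the sources used here. Each deposited list holds intervals and a MACS score, read as a scaled negative logarithm of the p-value, whose lowest value was 50.0. A longer list can come from deeper sequencing, so ranks and counts depend on a depth that the lists do not show.

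Genes were taken from GENCODE v44 lifted to GRCh37, and distances run from interval centres, since the lists give no summits. Peaks were ranked within lists, and tied scores took the best rank. Numbers of sites and best ranks were compared by two-sided exact permutation tests over libraries (Python 3.11.15, NumPy 2.4.6, SciPy 1.17.1), within antibody or state, with Benjamini-Hochberg adjustment over the 9 comparisons. Presence of sites was tested over all 6992 sites of the series with a peak in at least 5 libraries, and not over the window sites alone as first planned. The test was checked on simulated data, in which planted sites had a peak in every HIF-1α library and in no HIF-2α library. That check does not show whether smaller differences could be found. The study describes its replicates as independent experiments. The sources used here do not say whether these were separate cultures, and p-values measure the spread between these libraries.

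Sites with a peak in at least 5 libraries, VEGFA, 9 VEGF ligands and receptors, and the 5 genes most like VEGFA were named. Coding genes with a start in the window, or nearest to a described site, were named for position. The members and lists were chosen with earlier results of these data known. Alternatives were other merging, a score of at least 100, sites per 1000 peaks, lists of equal length, a window of 100 kb, a replicate block, and libraries left out, of which leaving out single libraries was added after seeing the data. The sequence at the centre of the promoter site is not reported here.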

Additional observations from a re-analysis of the deposited data

How the results depend on the processing

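Of 228 alternative values with a test, 5 crossed 0.05. Where the value reported was not 0 (166 alternatives), 149 kept its sign, 12 were 0 and 5 changed sign. Where it was 0 and had no direction (62 alternatives), 36 were not 0. The difference between HIF-1α and HIF-2α in best rank was 5.03 points with a window of 100 kb and -2.31 points with lists that had no window peak left out, and it ranged from -15.1 to -7.07 points with libraries left out. The difference in number of sites between 16 h and 6 h ranged from -0.667 to 0.333 with libraries left out, and the higher value was that without replicate 2. The HIF-2α KO difference in number of sites was 0.522 per 1000 peaks and 0.5 with lists of equal length. With lists of equal length the RCC4 and HepG2 differences from wild-type HKC-8 were 1.33 and 1.83, and with a window of 100 kb the HepG2 difference was -0.167, with the site 184 kb downstream, called in HepG2 alone, then outside. An HRE core was found in 8 of the 14 sites within 100 bp of the centre and in all 14 when the whole merged site was searched. For the 5 sites with a peak in at least 5 libraries these numbers were 4 and 5. Among the 6973 series sites with as many libraries, the shares were 62.6% and 93.4%, so a core somewhere in a site was common. Apart from what these constructions show, the cause was not tested. Replicate numbers were not taken as pairs, and correlations of peak calls cannot decide whether they pair the libraries. The correlation of deviations of same-numbered HIF-1α and HIF-2α libraries was 0.182 in RCC4, 0.150 at 48 h, 0.0504 in the wild type, 0.0310 at 6 h, 0.0199 at 16 h, -0.0200 at 3% oxygen and -0.494 in HepG2. With a replicate block no call changed in 14 comparisons, and the best-rank difference of -11.1 points had an exact permutation p of 0.102. The depth behind the lists is unknown.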
